A study of Homo sapiens with 78 samples.

Results

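A set of 10 genes of the extracellular matrix were followed through single cells of a melanoma line and a T cell line: the laminin chains LAMA4, LAMA5, LAMB1, LAMB2 and LAMC1, the type IV collagen chains COL4A1 and COL4A2, fibronectin (FN1), tenascin C (TNC) and osteonectin (SPARC). They are 10 of 62744 annotated genes, and several had been selected on their measured counts, which came from A375 cells, so the contrast between the cell lines is given here as a description without a test. What the choice did not use was the difference between library kits, the variation between single A375 cells and the transcripts each gene used.

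The study sorted single cells by FACS into plate wells and made total RNA libraries from each well with one of a pair of kits, the SMARTer Stranded Pico v2 kit (#634413) or the SMART-Seq Stranded kit (#634444). A375 is a human melanoma line, and its live cells (negative for 7-AAD, stained for CD47) were sorted into PBS, 21 wells per kit. Jurkat is a human T cell leukaemia line, and its live cells (stained for CD81) were sorted into lysis solution, 18 wells per kit. Cell line, culture medium (DMEM for A375, RPMI for Jurkat), stain and sort buffer went together in every well and cannot be told apart. No treatment was given for any group, and the wells of a group are single cells of a culture of 1 line, so the spread between them is the spread between cells and library preparations, not between cultures.

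Laminins are cross-shaped trimers of an alpha, a beta and a gamma chain, and with type IV collagen they form the sheet-like networks of basement membranes, the layers on which epithelial, endothelial, muscle and nerve cells rest. Fibronectin is a fibril-forming adhesion protein, whereas tenascin C and SPARC are matricellular proteins, which modify the contacts between cells and matrix rather than bear load. Melanoma cells are known to make matrix of their own, whereas T cells mostly move through matrix made by others.

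Of the 78 wells, 69 held at least 200000 estimated counts and were used, namely 17 and 16 of A375 with kits #634413 and #634444 and 18 of Jurkat with each kit. Their totals ran from 231540 to 2567265 estimated counts. Melanoma markers were above T cell markers in 33 of 33 A375 wells and in 0 of 36 Jurkat wells. In 3 of the A375 wells the protein coding genes held under 50% of the counts: 4.84% in replicate 8 and 10.5% in replicate 11 of kit #634413, and 44.4% in replicate 10 of kit #634444. Replicates 8 and 11 held 80 and 116 counts on the 10 genes together, and the 10 zeros of members other than FN1 in A375 wells were all in this pair of wells. Levels are given as CPM (counts scaled to 1000000) of the estimated counts on Ensembl transcripts of a well, which depend on transcript length and are compared between wells, not between genes.

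Sequence is shown for 2 sets of members whose values are compared below. The first is the stretch between the start sites of COL4A1 and COL4A2, which lie head to head on chromosome 13, 126 bases apart in the RefSeq annotation (GRCh38.p14), and whose levels are compared cell by cell below. The COL4A2 gene of GENCODE release 44 begins earlier, at 110305812, and exons that start before the stretch were not checked for overlap with it. The 100 bases before the first annotated COL4A2 exon that starts within the stretch, chr13:110307158-110307257, are printed on the plus strand. A CCAAT motif and a GGGCGG motif are in capitals.
COL4A1-COL4A2: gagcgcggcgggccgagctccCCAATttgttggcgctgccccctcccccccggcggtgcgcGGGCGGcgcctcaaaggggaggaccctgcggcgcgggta
Both strands of the 250 bases before each RefSeq start were searched for the motif CCAAT, for the GC box motif GGGCGG, for the TATA box motif TATAAA and for the AP-1 motif TGAGTCA, each also as its reverse complement. CCAAT was found for 3 of the 10 genes (COL4A1, COL4A2 and FN1), against 32% of 35116 promoters, and the COL4A1 and COL4A2 windows overlap. GGGCGG was found for 8 of the 10 genes, not for LAMA4 or SPARC, against 42.6% of all promoters. TATAAA and TGAGTCA were found for 0 of the 10 genes, against 10.7% and 4.2% of all promoters. A match here is a match of letters only.

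The second set is a pair of alternative exons of TNC, the ones whose estimated share differed between kits, both held mainly by 1 transcript (TNC-202). Both encode fibronectin type III repeats, and both are written in the sense of the transcript from the minus strand of GRCh38, exon 3 at chr9:115062917-115063189 and exon 7 at chr9:115048260-115048532, numbered among the 8 alternative repeat exons in the order of transcription. Capitals mark runs of at least 8 bases that are the same, at the same position, in the most similar other repeat exon of 273 bases, which was exon 1 for exon 3 (71.4% of bases identical) and exon 4 for exon 7 (52% identical, with no such run).
TNC exon 3: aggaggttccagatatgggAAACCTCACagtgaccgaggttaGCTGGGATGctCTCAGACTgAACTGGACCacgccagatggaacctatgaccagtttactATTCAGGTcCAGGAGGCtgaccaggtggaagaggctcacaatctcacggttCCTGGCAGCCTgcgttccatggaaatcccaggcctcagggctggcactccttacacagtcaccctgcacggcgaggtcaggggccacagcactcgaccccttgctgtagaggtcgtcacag
TNC exon 7: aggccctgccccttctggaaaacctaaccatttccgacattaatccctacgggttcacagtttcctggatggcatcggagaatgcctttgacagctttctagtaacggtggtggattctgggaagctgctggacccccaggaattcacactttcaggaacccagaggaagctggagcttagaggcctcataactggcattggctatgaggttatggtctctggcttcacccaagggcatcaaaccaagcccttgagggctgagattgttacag

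The 10 genes together took 0.472% ± 0.169 (SD, n = 17 wells) of the Ensembl counts of an A375 well under kit #634413, and under kit #634444 their share was 0.558% ± 0.185 (SD, n = 16). The lowest A375 well, replicate 8 of kit #634413, held 742 CPM over the 10 genes and the highest Jurkat well 98.8 CPM, so the summed level did not overlap between the lines. Of the 36 Jurkat wells, 18 held at least 1 count on any of the genes and 10 held at least 10.

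Of the laminin alpha chains, LAMA5 (chromosome 20, 62307955 to 62367312), the long alpha chain found in most mature basement membranes, was read in every A375 well. It ran from 48.8 CPM over a median of 545 to 877 CPM with kit #634413, and from 96.4 over 654 to 1245 CPM with kit #634444. No count was found in any of the 36 Jurkat wells, where 3 counts over the group, the limit that a count of 0 allows, would be 0.106 CPM, so the level pooled over A375 wells, 569 CPM, was at least 5383-fold higher. LAMA4 (chromosome 6, 112107931 to 112254939), the truncated alpha chain of vessel, fat and nerve basement membranes, ran from 0 over 255 to 504 CPM with kit #634413 and from 23.9 over 182 to 480 CPM with kit #634444. It was at 0 in replicates 8 and 11 of kit #634413. In Jurkat LAMA4 had 13 counts in 3 wells, 8 of them in 1 well, and 31 of 33 A375 wells lay above all Jurkat wells.

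LAMB1 (chromosome 7, 107923799 to 108003213), the beta chain of the laminins made from early development on, had the highest counts of the 10 genes. With kit #634413 it ran from 0 over 1340 to 2480 CPM, and with kit #634444 from 298 over 1391 to 1980 CPM. It was at 0 in 1 A375 well, replicate 8, and the other 32 lay above all Jurkat wells. LAMB1 was one of the members read in Jurkat: 8 of 36 wells held it, the highest at 98.8 CPM with 66 counts, and the pooled level was 165-fold higher in A375 (1314 against 7.97 CPM). LAMB2 (chromosome 3, 49121114 to 49133118), the beta chain of the neuromuscular junction and the kidney filter, was far lower, with a median of 149 CPM (0 to 268) with kit #634413 and 151 CPM (20.1 to 314) with kit #634444. No Jurkat well held a LAMB2 count, which puts A375 at least 1400-fold higher. The gamma chain LAMC1 (chromosome 1, 183023420 to 183145592), shared by most laminins, ran from 0 over 715 to 1305 CPM with kit #634413 and from 250 over 668 to 1285 CPM with kit #634444. Its 9 Jurkat counts were all in 1 well.

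The collagen chains are the partners of the most common type IV collagen trimer. COL4A2 (chromosome 13, 110305812 to 110513209) was read in every A375 well, from 37.1 over 405 to 997 CPM with kit #634413 and from 176 over 456 to 1070 CPM with kit #634444. COL4A1 (chromosome 13, 110148963 to 110307157) ran from 0 over 223 to 780 CPM with kit #634413 and from 116 over 207 to 527 CPM with kit #634444. Jurkat held 11 counts of COL4A2 in 2 wells and 1 count of COL4A1. LAMA5 and COL4A2 were the members for which all 33 A375 wells lay above all 36 Jurkat wells. That was so for 0.0989% of the 12137 genes tested between the lines, a contrast that the choice of the genes had used.

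TNC (chromosome 9, 115019575 to 115118207) ran from 0 over 679 to 2278 CPM in A375 with kit #634413 and from 91.5 over 954 to 3079 CPM with kit #634444. No Jurkat well held a TNC count, so the pooled A375 level of 869 CPM was at least 8214-fold higher. SPARC (chromosome 5, 151661096 to 151686975), a collagen-binding protein, ran from 0 over 362 to 1044 CPM with kit #634413 and from 73.6 over 364 to 2612 CPM with kit #634444. SPARC was the member most often read in Jurkat, in 11 of 36 wells and at up to 57.8 CPM. One of these wells held 68 of the 168 counts, and the pooled ratio of A375 to Jurkat was 76.6 with it and 123 without it.

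FN1 (chromosome 2, 215360440 to 215436073) went another way. At least 1 count was found in 5 of 17 A375 wells with kit #634413 (median 0, highest 43.6 CPM) and in 9 of 16 with kit #634444 (median 4.14, highest 4471 CPM). Only 8 of 33 A375 wells lay above all Jurkat wells, where FN1 had 9 counts in 3 wells. Replicate 20 of kit #634444 alone held 2393 of the 2601 FN1 counts, or 92%, and the next highest well held 43. Without it, the pooled FN1 level of A375 fell from 89.5 to 7.29 CPM. The same well held 754 LAMB1 counts and 361 LAMC1 counts, near the medians of its group (8th highest of 16 for each), whereas its TNC level of 91.5 CPM was the lowest of the 16 wells.

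**Figure D1:**
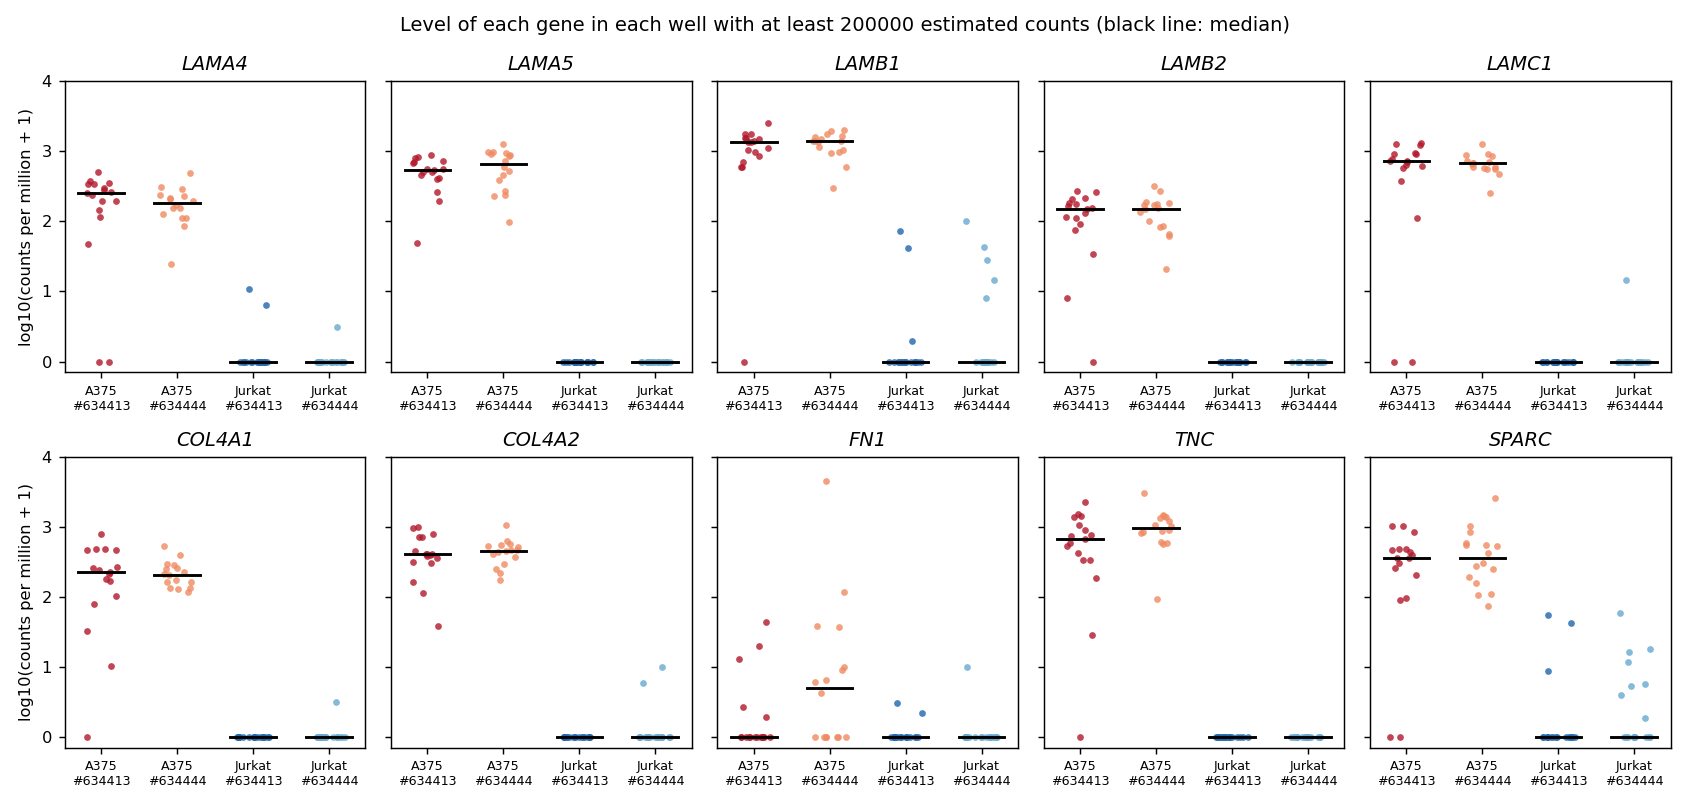
Level of the 10 genes in each of the 69 wells, as log10(CPM + 1), by cell line and kit, with the median as a black line. In A375 the wells of 9 genes form a band with a few wells at 0, while FN1 is at or near 0 in most wells and at 4471 CPM in 1; in Jurkat most wells are at 0 for each gene, with LAMB1 and SPARC read in 8 and 11 wells.

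Between genes only a level per transcript length can be compared, and this order depended on which transcripts were summed. Over all annotated transcripts, the mean level in the 33 A375 wells was 304 TPM ± 206 (SD) for LAMB1, 269 ± 261 for SPARC, 200 ± 95.7 for LAMC1, 133 ± 87.8 for COL4A2, 103 ± 65.2 for TNC, 94 ± 38.2 for LAMA5, 83.1 ± 66.6 for LAMB2, 79.2 ± 77.9 for LAMA4, 29.6 ± 22.5 for COL4A1 and 17.7 ± 80.6 for FN1. Neighbours were close: with the genes ranked by their median, each gene was above the next one in 14 to 24 of 33 wells, except for the last step, from COL4A1 to FN1 (30 of 33). With protein coding transcripts of at least 3000 bases alone, LAMB1 stayed first at 129 TPM ± 62.6, TNC followed at 79.7 ± 57.7, and SPARC dropped to 22.1 ± 24.4.

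**Figure D2:**
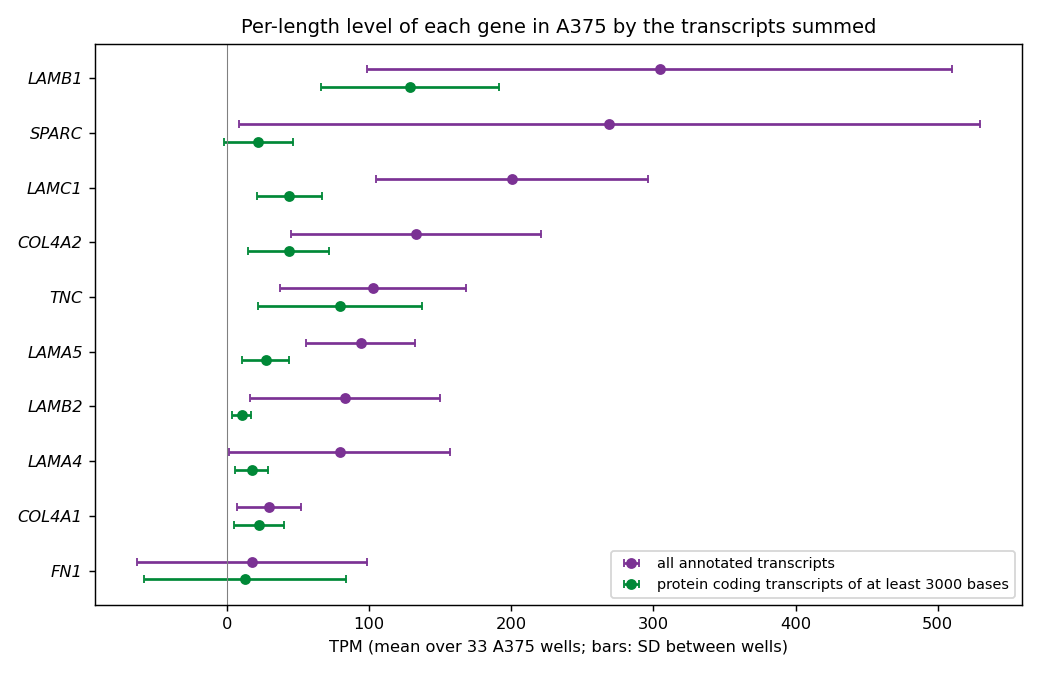
Mean TPM of each gene over 33 A375 wells, with bars for the SD between wells, summed over all annotated transcripts or over protein coding transcripts of at least 3000 bases. SPARC moves from 269 to 22.1 TPM, TNC only from 103 to 79.7, and LAMB1 is highest on both sums.

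What SPARC lost on the shorter sum was on short coding models, 51.7 TPM on SPARC-209 and 42.2 TPM on SPARC-204, and on models annotated as retained introns, which held 59.1% of its A375 counts. SPARC-202 alone, a model of 1598 bases, held 54.7% of them, and 96.6% of its bases lie in exons of coding SPARC transcripts, so 54 bases set it apart. LAMB2 had 33.6% of its counts on retained intron models and LAMB1 9.37%, whereas COL4A1 had 0.536% and TNC and LAMC1 had no such model. As shares of TPM, on which short models weigh more, these were 80.3% for LAMB2, 56% for LAMB1, 47.6% for SPARC and 5.7% for COL4A1. LAMB1-210, a model of 379 bases, alone held 108 TPM of LAMB1. How much intron-holding RNA this stands for, as against reads from shared exons that were divided between models, was not tested.

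Within single A375 cells LAMB1 was above LAMB2 in most wells on each scale. LAMB1 exceeded LAMB2 in 31 of 31 wells that held at least 10 counts of each, with a median ratio of counts of 8.72, on long coding TPM the median ratio was 11.4 (30 of 30 wells with both above 0), and on summed TPM it was 3.92 (29 of 31 wells). COL4A2 exceeded COL4A1 in 28 of 31 wells by counts, with a median ratio of 1.96, in 28 of 30 by long coding TPM (2.03) and in 31 of 31 by summed TPM (3.42). For the alpha chains the order was less even: LAMA5 exceeded LAMA4 in 25 of 30 wells by counts (median ratio 3.15), but in 18 of 30 by summed TPM (median ratio 1.41). By long coding TPM it did so in 21 of 30 (1.73). With kit #634413 LAMA5 was above in 12 of 15 wells by counts and in 8 of 15 on either TPM sum. With kit #634444 it was above in 13 of 15 by counts, 13 by long coding TPM and 10 by summed TPM.

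Whether the library kit moved these genes was asked in the A375 wells, by edgeR's quasi-likelihood test over all 13037 genes with enough counts. All 10 members passed the filter, and 1 gene of the 13037 was called, or 0.00767%, and that gene was FN1. Its log2 fold change, kit #634444 over #634413, was 5.96 ± 1.15 (SE, edgeR adjusted p = 0.0446), but the medians of 0 and 4.14 CPM were close and the groups overlapped. Without replicate 20 of kit #634444 the value was 1.65 ± 1.06 (SE, edgeR adjusted p = 0.9999), so the call rested on that well. For the other 9 members log2 fold changes lay between −0.24 (LAMA4) and 0.51 (TNC), with SEs of 0.29 to 0.44 and an edgeR adjusted p of 0.99997 (lowest unadjusted p 0.186, for TNC). The 95% interval was −0.58 to 0.57 for COL4A2, −0.48 to 0.75 for LAMB1 and −0.24 to 1.27 for TNC, which leaves room for differences of these sizes. In Jurkat none of the 10 genes had enough counts for the kit test, in which 4 of 10624 genes were called (0.0377%).

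**Figure D3:**
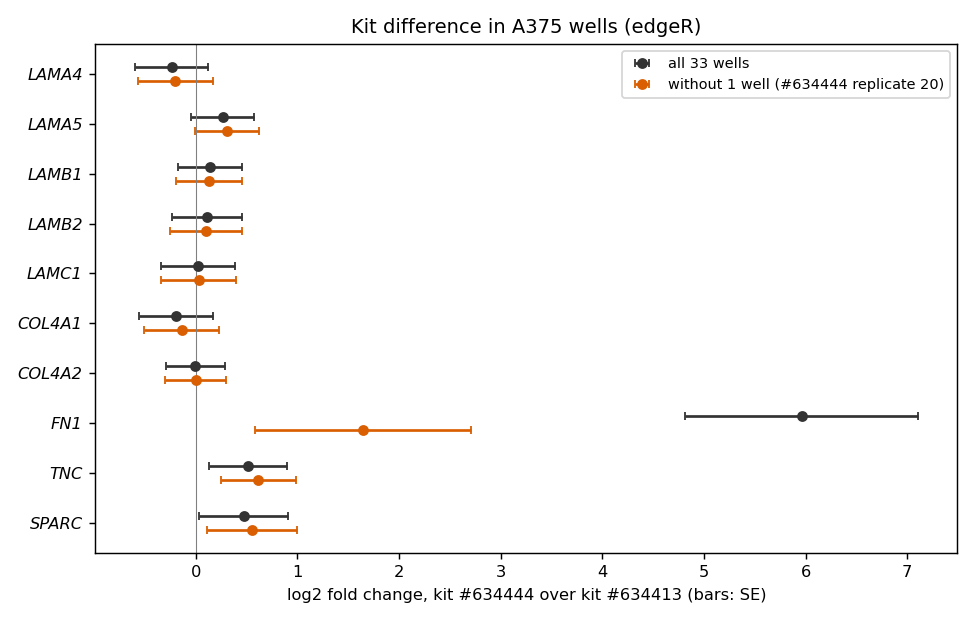
Log2 fold change between kits in A375 wells for each gene, with bars for the SE, from the fit to all 33 wells and from the fit without replicate 20 of kit #634444. The other 9 genes lie between −0.24 and 0.51 in the fit to all wells, and FN1 moves from 5.96 to 1.65 when the well is left out.

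The spread between single A375 wells differed among the genes. The biological coefficient of variation (BCV) of the same edgeR fit was 2.10 for FN1, where the trend over genes of its abundance was 0.70; without replicate 20 of kit #634444 it was 2.27 beside a trend of 1.85. SPARC (BCV 0.85, trend 0.66) and TNC (0.74, trend 0.66) also stood above the trend, while COL4A2 (0.57), LAMB1 (0.59) and LAMA5 (0.60) stood below their trends of 0.66. COL4A1 (0.70, trend 0.67) and LAMC1 (0.68, trend 0.66) lay slightly above. These values include the wells of low coding share. In wells with a coding share of at least 50%, LAMB1 was at 0.40 (trend 0.52) and LAMC1 at 0.45 (trend 0.53). SPARC (0.72, trend 0.54) and TNC (0.59, trend 0.52) stayed above the trend there.

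Across wells, Spearman's rho of COL4A1 with COL4A2 was 0.59 over 17 wells of kit #634413 and 0.64 over 16 wells of kit #634444, and of COL4A1 with LAMA4 0.59 and 0.61. LAMA5 and LAMB1 gave 0.59 and 0.43, while LAMB1 and TNC gave 0.13 and −0.20. Over the 36 pairs without FN1 the median rho was 0.27 and 0.34, beside medians of 0.21 and 0.02 over all pairs of 7017 genes with at least 20 counts per well on average. Depth and coding share also varied between these wells. With kit #634413 the summed level of the members had a rho of 0.59 with the protein coding share of the well (17 wells), and with kit #634444 0.09 (16 wells). Its rho with the Ensembl counts of the well was 0.46 and −0.24. Whether depth or coding share accounts for the correlations between genes was not tested. In the 15 wells of each kit with a coding share of at least 50%, the median over the pairs became −0.04 and 0.32, COL4A1 with COL4A2 gave 0.43 and 0.69, and LAMA5 with LAMB1 gave 0.66 and 0.62. The median over pairs with kit #634413 was then not above that of all genes (0.01).

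**Figure D4:**
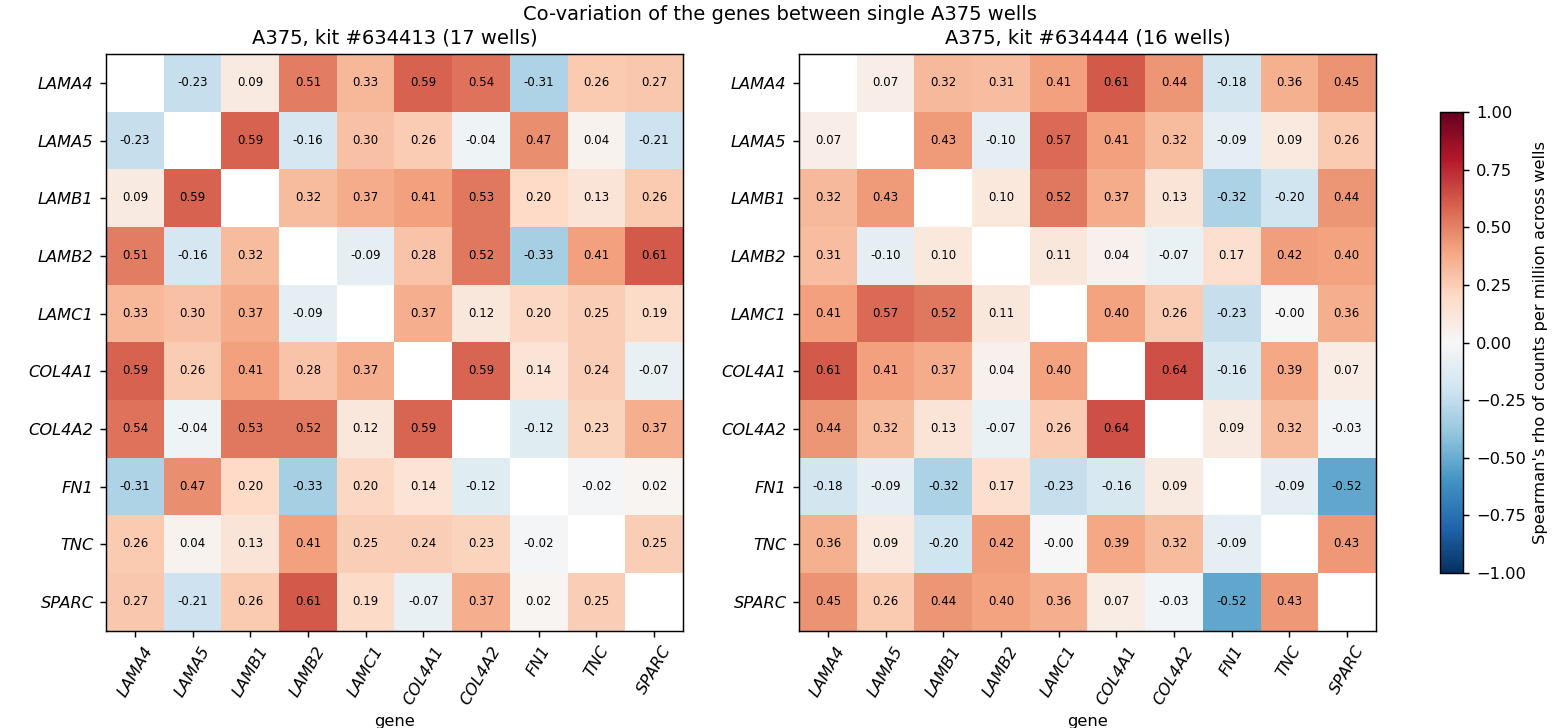
Spearman's rho of CPM between each pair of genes across A375 wells, left for 17 wells of kit #634413 and right for 16 wells of kit #634444. COL4A1 with COL4A2 and COL4A1 with LAMA4 are at 0.59 or above in both panels, and FN1 has the lowest values.

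For each member except FN1, which had too few counts, the gene most like it was ranked by the smaller of its rho values in the 2 kits, over 7016 other genes. Among the 3 genes most like TNC was NRP2, a semaphorin and VEGF co-receptor (0.75 and 0.70). LAMB2 was most like OSBPL10 (0.73 and 0.73) and SPARC most like DOCK5 (0.75 and 0.71). COL4A2 was most like SLC7A5, an amino acid transporter subunit (0.66 and 0.71). LAMB1 was most like PDCD2 (0.69 and 0.76), LAMC1 most like CASP4 (0.67 and 0.67), LAMA4 most like PIK3R1 (0.65 and 0.65), COL4A1 most like COG6 (0.65 and 0.62), and LAMA5 most like WBP4 (0.57 and 0.75). The best of 7016 values over so few wells is high for any gene, and no member was another's closest match.

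The transcripts of TNC differ in how many alternative fibronectin type III repeats they hold. TNC-202, which holds 7 of the 8 alternative exons (all but exon 6), took 57.6% of the TNC counts in A375, TNC-201 with 5 of them took 17.6%, and TNC-209 with none took 10.4%. Pooled over 31 wells, the share of TPM on transcripts with the exon was 76.8% for exon 1, 69.8% for exon 2, 57.4% for exon 3, 69.2% for exon 4, 83.1% for exons 5 and 8 each, 54.4% for exon 7 and 12.5% for exon 6. Long forms with most repeats thus outweighed the short form, and exon 6 was the least used. Exons 5 and 8 were present or absent together in the coding transcripts that span them and so have 1 value. The pooled share of exon 7 counted TNC-202 alone, whereas the comparison of kits below also counted TNC-207.

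The shares of transcripts with exons 3 and 7, the sequences printed above, were higher with kit #634444. TNC-202, with 14551 counts, carried most of both. The other coding transcripts with exon 3 held 856 (TNC-203) and 10.4 counts (TNC-206), and TNC-207 with exon 7 held 153. The shares of these exons are thus largely 1 value, that of TNC-202, and their tests are not separate results. Exon 7 was on 38.8% ± 22.8 (SD, n = 15 wells) of the TPM under kit #634413, against 67.8% ± 24.5 (SD, n = 16) under kit #634444, a difference of 28.9 percentage points (two-sided permutation test with 100000 resamples, p = 0.00272, adjusted over the 8 exons 0.0218). For exon 3 it was 40.6% ± 25.4 (SD, n = 15) and 67.6% ± 24.6 (SD, n = 16), a difference of 26.9 points (same permutation test, p = 0.00622, adjusted 0.0249). The wells of the kits overlapped for both exons. The other 6 exons differed by 6.21 to 9.44 points, each higher with kit #634444, with adjusted p of 0.218 to 0.375 in the same permutation test. This test was added after the shares had been seen. Among wells with at least 300 counts on coding TNC transcripts (13 and 15), the difference was 23.6 points for exon 7 (permutation p = 0.0113) and 21.3 for exon 3 (permutation p = 0.0282), and leaving out any 1 of the 31 wells kept it between 26.2 and 33.3 points for exon 7 and between 24 and 31.3 for exon 3. These shares rest on how kallisto divided reads among transcripts, with a median of 492 counts a well on coding TNC transcripts with kit #634413 and 818 with kit #634444. Of the 8 exons, only exons 1 and 4, 88.6% identical, shared stretches of 31 bases (17 of them).

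**Figure D5:**
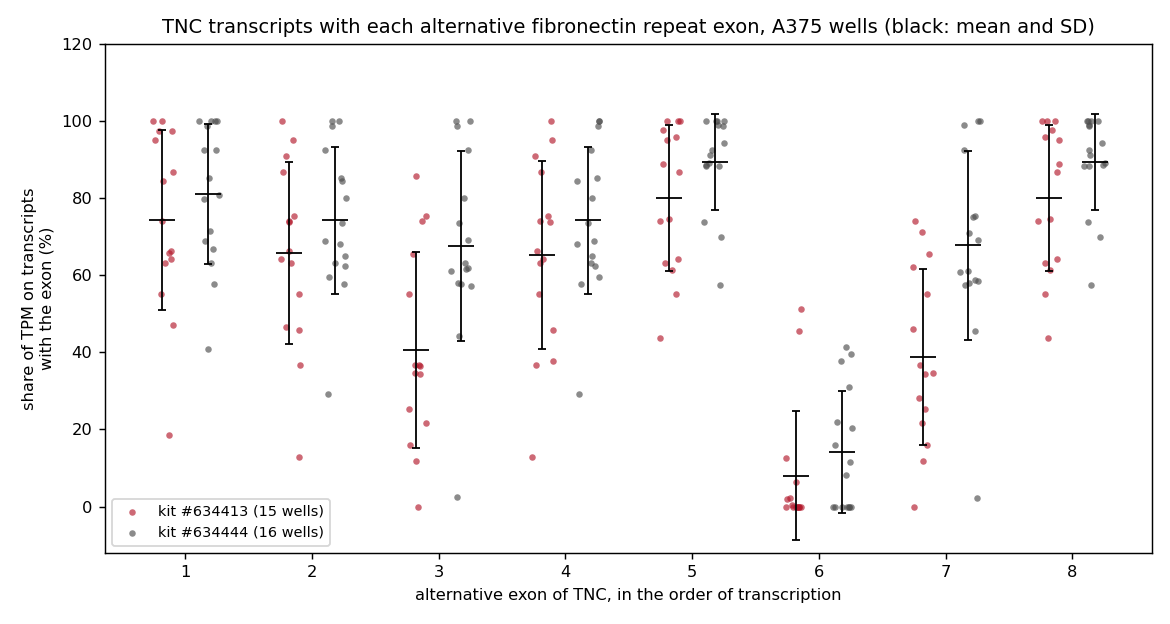
Share of TPM on TNC transcripts that hold each of the 8 alternative fibronectin repeat exons, per A375 well and kit, with the mean and SD in black. Exons 3 and 7, both mainly on TNC-202, are higher with kit #634444 (67.6% and 67.8% against 40.6% and 38.8%), and exon 6 is low with both kits.

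Fibronectin has alternative repeats of the same kind, and its high well had counts enough to read them. In replicate 20 of kit #634444, the 270-base extra domain A exon (chr2:215380811-215381080) was on 78.2% of the TPM of the coding transcripts that could hold it, and the 273-base extra domain B exon (chr2:215392931-215393203) on 15%. These are shares of 1 well with 2393 FN1 counts and have no replicate.

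The genes around the members were followed in 7 lists of matrix genes, 125 in all, of which 66 had enough counts to be tested between A375 and Jurkat (edgeR with kit as a covariate). Of these 66, 55 were higher in A375, 2 were lower and 9 did not pass the threshold. Among all 12137 genes tested, 41.1% were called, 23.2% higher and 17.9% lower in A375. The filter bears on these counts: it asked for 5 counts in 18 of the 69 wells, and 49 of the 66 had too few such Jurkat wells to pass without A375. Of the 41 with at least 5 counts in 25% of the A375 wells but not of the Jurkat wells, 39 were higher, and among all genes of that kind 77.4% were higher and 0 lower. Of the 23 list genes with such counts in both lines, 16 were higher, 1 was lower and 6 did not pass, beside 13.9% higher and 17.3% lower of the 9551 genes of that kind; this split was added after the values were seen. Their median log2 fold change was 1.61, beside −0.08 over those 9551 genes. Of the 23, BMP1, DDR1, ITGA1, ITGA6, P3H3, PLOD3 and SDC3 had at least 5 counts in only 9 to 17 Jurkat wells. They too needed A375 wells to pass the filter, and all of them but BMP1 were higher in A375. The 9 members other than FN1 also passed this filter, through their A375 wells alone.

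Of the 15 other basement membrane genes 6 were tested and 4 were higher in A375. The filter kept HSPG2, NID1 and COL4A5 through A375 alone and PXDN through Jurkat alone. HSPG2, which encodes the heparan sulfate proteoglycan perlecan, was at 230 CPM ± 184 (SD, n = 33 wells) in A375 and had 1 count in all Jurkat wells, and NID1, the linker of laminin and collagen IV networks, was at 262 ± 131 against 5 counts in Jurkat. COL4A5, another collagen IV chain, was at 18.4 ± 19 CPM against 0 counts. AGRN, the agrin gene, was higher by 2.21 ± 0.43 on the log2 scale (SE, edgeR adjusted p = 1.1e-05). PXDN, the peroxidasin that cross-links collagen IV, was the one gene of the list that was lower, at 2.83 ± 13.2 CPM in A375 and 95.7 ± 77.4 in Jurkat, with counts in 34 of 36 Jurkat wells and 2 of 33 A375 wells.

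Of 15 interstitial collagen and elastic fibre genes 6 were tested, and all 6 were higher in A375. All 6 had at least 5 counts in 25% of the wells of A375 but not of Jurkat. The filter thus kept them through A375, and of the 1922 genes of that kind 0 were lower. The same held for the 6 tested genes of the matricellular list below. COL6A1 and COL6A2, chains of the beaded collagen VI, were at 230 ± 114 and 140 ± 119 CPM (SD, n = 33) in A375 and at 1.48 ± 8.76 and 2.29 ± 12.1 in Jurkat (n = 36). COL5A2 and EMILIN1 were at 40.6 ± 43.8 and 69.9 ± 38.4 CPM in A375, against 0.289 ± 1.40 and 5.30 ± 13.8 in Jurkat. Of 20 other matricellular genes 6 were tested and 5 were higher, among them CCN1 (119 ± 149 CPM in A375, 0 counts in Jurkat), THBS1, thrombospondin 1 (297 ± 712 against 1.23 ± 4.66), TGFBI (156 ± 218 against 2.04 ± 11.7) and HAPLN1, a hyaluronan link protein (171 ± 345 against 0 counts). The SDs of CCN1, THBS1, TGFBI and HAPLN1 were above their means in A375, where they were read in 30, 26, 31 and 21 of the 33 wells.

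Of 24 genes that process and cross-link collagen, 20 were tested, 15 were higher in A375 and 5 did not pass. Of those named here, the filter kept PLOD2, LOXL4 and COLGALT2 through A375 alone. PLOD3 had at least 5 counts in 11 Jurkat wells, too few to pass the filter without A375 wells. PLOD2 and PLOD3, lysyl hydroxylases, were at 81.5 ± 70.9 and 138 ± 70.5 CPM in A375 and at 1.99 ± 6.89 and 7.77 ± 12.7 in Jurkat. LOXL4, a lysyl oxidase, and COLGALT2, a collagen galactosyltransferase, were at 167 ± 454 and 20.4 ± 27.1 CPM in A375 with 0 counts in Jurkat.

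All 18 tested of the 22 matrix receptor genes differed, 17 of them higher in A375. Of those named here, the filter kept CSPG4, DDR2, SDC4 and ITGB5 through A375 alone. CSPG4, a melanoma proteoglycan and also one of the markers of the line, was at 543 ± 515 CPM in A375 against 1 count in Jurkat, and the collagen receptor DDR2 at 754 ± 295 CPM against 1.13 ± 5.11. The syndecan SDC4 and the integrin chain ITGB5 were at 118 ± 99.4 and 83.1 ± 48.6 CPM, against 0.220 ± 1.32 and 0.996 ± 3.68. ITGA4, the alpha chain of an integrin of leukocytes that binds fibronectin and VCAM-1, was the exception, with 50.6 ± 45.9 CPM in A375 and 1109 ± 570 in Jurkat (log2 fold change −4.32 ± 0.31 (SE), edgeR adjusted p = 1e-21).

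Of 22 matrix proteases and inhibitors 10 were tested and 8 were higher in A375. All 8 were kept by the filter through A375 alone. They included the metalloproteinases MMP16 (328 ± 222 CPM in A375, 4 counts in Jurkat) and MMP2 (188 ± 196 CPM, 2 counts), the inhibitor TIMP1 (146 ± 108 CPM, 2 counts) and the serpin SERPINE2 (3549 ± 2139 CPM against 4.43 ± 13.6). Between kits within A375, 0 of the 73 tested genes of the 7 lists were called by edgeR, DESeq2 or limma, with 2, 2 and 3 of them at an unadjusted p under 0.05. With genes kept at 1 count in 3 wells, edgeR called 3 of 103, with 13 at an unadjusted p under 0.05, beside 6.36% of all genes tested so.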

How the data were processed

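Single-cell total RNA libraries were quantified by the authors with kallisto (0.43.1, strand-aware) against Ensembl transcripts (hg38), to which spike sequences had been added, and the deposited tables give estimated counts and TPM per transcript and well. STAR (2.5.3) is also named in the submitters' processing notes. Both values were summed to genes through GENCODE release 44 (GRCh38); 4356 of 200206 Ensembl transcripts had no entry and stayed unnamed. The estimated counts were rounded to whole numbers and tested with edgeR 4.0.16 (quasi-likelihood, TMM, a minimum of 5 counts for a gene in 25% of the wells, Benjamini-Hochberg over all genes, threshold 0.05), in R 4.3.3. Alternatives were DESeq2 1.42.0, scaling by library size, a filter of 1 count in 3 wells, limma 3.58.1 on log2(TPM + 1), all wells, wells with a coding share of at least 50% and single kits. The fits were tested on simulated counts. Named were all 10 members and, of each list, up to 4 genes per direction with the smallest adjusted p; some genes are not reported here. Members and lists were chosen with earlier results of these data known. Exon shares needed at least 10 counts a well. Intervals and floors cover counting error or well-to-well spread only. The fit without the well highest in FN1, the sum over long coding transcripts, the split of list genes by the lines they were read in and the test of exon shares were chosen after seeing the data.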

Additional observations from a re-analysis of the deposited data

How the results depend on the processing

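The number of genes called between kits in A375 was 1, and it became 9 with all wells, 2 with a coding share of at least 50%, 4 with DESeq2, 11 with limma on TPM and 1518 with no filter on low counts; without replicate 20 of kit #634444 it was again 1, but no longer FN1. In Jurkat 4 genes became 26 with DESeq2, 81 with limma and 1462 with no filter. Between the lines 4985 genes became 12882 with no filter and 2664 with kit #634413 alone. The list genes lower in A375 went from 2 to 4 with no filter, and those higher ranged from 44 (kit #634413 alone) to 82 of 107 tested (no filter); with counts in both lines, a split chosen after seeing the data, 16 were higher and 1 lower; the share higher was 66.7% of 66 with kit #634413 alone. As a share of TPM, the 10 genes took 0.135% and 0.128% of A375 wells with kits #634413 and #634444.

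The kit difference of FN1 lost its call with a coding share of at least 50% (log2 fold change 6.02, edgeR adjusted p = 0.0641) and with limma (1.19, adjusted p = 0.572); DESeq2 gave it no p and it was not tested with all wells. Signs turned among members never past the threshold: LAMA5 (−0.17) and LAMC1 (−0.059) with all wells, LAMB2 (−0.027) and LAMC1 (−0.10) with a coding share of at least 50%, LAMC1 (−0.024) with library size alone and COL4A1 (0.11) with limma. Each named list gene kept its direction and call in all 203 alternative fits that could test it. These genes had been named for the smallest adjusted p in the main fit to the same wells. That they kept their calls was therefore likely in advance and says little about the lists as a whole. No cause was tested. No member had enough counts to be tested between kits in Jurkat.

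No paired analysis was possible because the replicate numbers of wells name single cells and pair none.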

Other observations

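The other laminin chains described here had too few counts to be tested in any comparison. In the 33 A375 wells LAMA2 had 247 counts in 9 wells, LAMA3 177 in 12 wells, LAMB3 and LAMC3 91 each in 11 and 8 wells, and LAMA1 46.1 in 8 wells. LAMB4 was read at 1.11 estimated counts in 1 well. In Jurkat the highest of these was LAMA1, with 38 counts in 6 of 36 wells.

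Of the annotated noncoding genes that share the name of a member, LAMA4-AS1, LAMA5-AS1, LAMC1-AS1, COL4A2-AS1, COL4A2-AS2 and FN1-DT had 0 counts in all 33 A375 wells. The pseudogene LAMB2P1, which lies on the same strand of chromosome 3 as LAMB2, had 31 counts in 6 wells, beside 4304 for LAMB2.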
